A study of Mus musculus with 18 samples.

Results

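The respiratory chain is built from subunits of both genomes of the cell, and the genes described here are the mitochondrial-genome genes ND1, ND2, ND3, ND4, ND4L, ND5, ND6, COX1, COX2, COX3, CYTB, ATP6 and ATP8 together with the nuclear genes whose symbols mark them as subunits (Nduf followed by a, b, c, s or v and a digit, Sdha to Sdhd, Uqcr, Cox4 to Cox8, and Atp5). Of 41079 genes measured, 105 carried such a name, 13 of them mitochondrial and 92 nuclear. A mean of at least 1 FPKM (fragments scaled to the length of the gene and to the depth of the library) over 18 tumors was required, which kept all 13 mitochondrial-genome genes and 84 nuclear genes. The names and the filter used no difference between groups, but the set was chosen with earlier results of these data known. Just inside the limit was Cox4i2 with a mean of 1.54 FPKM, and just outside it was Cox7a1 with 0.867 FPKM.

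The tumors were B16F10 melanomas, a mouse melanoma cell line grown under the skin of C57BL/6 females, and the RNA of whole tumor pieces was sequenced. Injections into the tumor began on day 6 and were repeated every 2 days, and tumors were taken 48 h after the last one. All 6 groups (n = 3 tumors each) therefore carried the same cells and the same schedule. They received PBS, Free PS473 (a Pistol ribozyme directed at the mRNA of PD-L1, without carrier), PS473@CPs (PS473 carried by cationic polymers), NKMOF-101-[Mn] (a manganese metal-organic framework alone), M5@NKMOF-101-[Mn] (the framework with an inactive mutant ribozyme) or PS473@NKMOF-101-[Mn] (the framework with the active ribozyme). The titles of the last 3 tumors give the framework as NKMOF-102-[Mn], while the series design lists only NKMOF-101-[Mn], the name used here. The age of the mice is not given in the sources used here, and each mouse carried tumor cells on 1 flank, so the 3 tumors of a group are taken as separate mice.

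The respiratory chain passes electrons from NADH and succinate to oxygen through complexes I to IV and uses the proton gradient that results to make ATP at complex V. The mitochondrial genome encodes core subunits of complexes I, III, IV and V and is transcribed as long transcripts from both strands that are cut into separate mRNAs by removal of the tRNAs between them. Nuclear genes encode all other subunits, complex II entirely, and many of them are driven by the transcription factors NRF1, GABP and YY1. Of the genes kept, complex I had 7 mitochondrial and 42 nuclear members, complex II 4 nuclear members, complex III 1 and 8, complex IV 3 and 12, and complex V 2 and 18, as their names assign them (Ndufa4 and Ndufa4l2 are listed by name with complex I, although Ndufa4 is known as a complex IV subunit).

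Many mitochondrial-genome genes share their sequence with transcripts of the nuclear genome, and this can bear on the values of those genes below. In GENCODE M21 of mouse build GRCm38, 141730 nuclear transcripts were searched for each 50-base window of the 13 genes (GRCm38 was used for sequence only, since the notes of the submitters name GRCm39 for the FPKM values). A window was found in a nuclear transcript for 9 of the 13. The share of windows found was 100% in COX2, 99.9% in COX3, 99.5% in ATP6, 98.8% in ND4L and 98.0% in ND3. It was 62.2% in ND4, 51.1% in COX1, 8.19% in ND2 and 7.61% in ND5, and 0% in ND1, ND6, CYTB and ATP8. The annotated copies of COX1, COX2, ATP6, COX3, ND3, ND4L and ND4 stand in the mitochondrial order on the minus strand of chromosome 1 within 4663 bases (chr1:24611535-24616197, GRCm38). Over the bases compared, 0 of 876 differed in ND4, 0 of 294 in ND4L, 0 of 681 in COX2, 0 of 783 in COX3, 0 of 678 in ATP6, 1 of 345 in ND3 and 6 of 492 in COX1. Between the copies of ATP6 and COX2 lie 233 bases with no annotated transcript, which were not searched. The same interval of the mitochondrial genome has 230 bases (chrM:7697-7926) and holds the start of ATP8. How the authors assigned fragments that match both genomes is not given in the sources used here, so the levels of these genes are uncertain.

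The first 90 bases of the ATP6 coding sequence (chrM:7927-8607, plus strand) and of its nuclear copy Gm10925 (chr1:24613974-24614651, minus strand) are printed to show that a fragment from this stretch cannot be placed by its sequence. Capitals mark the 43 bases that ATP6 shares with the end of ATP8 (chrM:7766-7969).
ATP6: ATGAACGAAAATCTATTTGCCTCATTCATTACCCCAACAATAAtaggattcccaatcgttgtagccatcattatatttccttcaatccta
Gm10925: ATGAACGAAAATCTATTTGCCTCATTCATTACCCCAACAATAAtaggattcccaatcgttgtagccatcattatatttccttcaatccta

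The copy of COX1 begins inside the gene, at base 1054 of its 1545, and is printed to show the edge where the sequences part. Bases 1054 to 1143 of COX1 (chrM:5328-6872, plus strand) stand beside the first 90 bases of Gm29216 (chr1:24615706-24616197, minus strand), with the positions that differ in capitals.
COX1: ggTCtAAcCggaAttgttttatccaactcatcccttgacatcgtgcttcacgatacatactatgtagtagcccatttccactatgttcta
Gm29216: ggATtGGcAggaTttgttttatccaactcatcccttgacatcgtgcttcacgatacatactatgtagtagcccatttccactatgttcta
All 6 differences between COX1 and this copy fall in the first 13 bases. COX1, with 51.1% of its windows found in a nuclear transcript, and CYTB, with 0%, had the highest levels of the 13 genes. ND6 and ATP8, also with 0%, were lower, at 164 and 35.5 FPKM on average in PBS.

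In features of the whole series 3 tumors stood out, and the part of these features in the values of the members was not tested. The recovered depth was 17212000 to 28401000 fragments per tumor, 0 pairs of tumors held identical values, and the correlation of log values between tumors was 0.8801 to 0.9901. The melanocyte genes that mark the labelled cell type summed to 5980 to 9227 FPKM, and none of the 18 tumors lacked them. Cd274, the gene for PD-L1 that PS473 is meant to cut, did not pass the test in any comparison. It ranged from 12.3 to 21.5 FPKM in PBS and from 9.74 to 32.9 FPKM under PS473@NKMOF-101-[Mn]. The paper reports lower PD-L1 in tumors of that treatment by quantitative PCR, Western blot and tissue staining. The result here therefore holds for these FPKM values only. PS473@CPs tumor 2 had the highest mitochondrial share and the highest summed level of 17 skin epithelium genes (3977 FPKM against 1.99 to 3614 in the other 17 tumors). PBS tumor 1 had the highest summed erythroid genes (13892 FPKM, against 41.3 to 8606 in the other 17). In PS473@NKMOF-101-[Mn] tumor 3, Malat1, a long nuclear RNA, was at 10.1 FPKM against 48.2 to 118 FPKM elsewhere. The main counts at an unadjusted p are also given without these tumors where leaving them out changed them.

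The share of fragments taken by the 13 mitochondrial-genome genes differed far more between tumors than the share of the 84 nuclear genes. The mitochondrial share was 1.01%, 0.935% and 1.49% in PBS, 1.17%, 0.870% and 0.939% in Free PS473, and 1.83%, 5.39% and 1.52% in PS473@CPs. In the framework groups it was 1.20%, 1.18% and 1.06% in NKMOF-101-[Mn], 1.18%, 1.32% and 0.972% in M5@NKMOF-101-[Mn], and 0.868%, 1.43% and 2.24% in PS473@NKMOF-101-[Mn]. PS473@CPs tumor 2 stood above all others, while every other tumor lay between 0.868% and 2.24%, and all 3 PS473@CPs tumors lay above the 3 PBS tumors. The group means ± SD (n = 3) were 1.14% ± 0.298 in PBS, 0.992% ± 0.155 in Free PS473, 2.91% ± 2.15 in PS473@CPs, 1.15% ± 0.0740 in NKMOF-101-[Mn], 1.16% ± 0.176 in M5@NKMOF-101-[Mn] and 1.51% ± 0.690 in PS473@NKMOF-101-[Mn].

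The nuclear share stayed between 1.02% and 1.59% in all 18 tumors. It was 1.59%, 1.02% and 1.19% in PBS, 1.20%, 1.20% and 1.57% in Free PS473 and 1.34%, 1.25% and 1.23% in PS473@CPs. It was 1.14%, 1.33% and 1.09% in NKMOF-101-[Mn], 1.32%, 1.22% and 1.29% in M5@NKMOF-101-[Mn] and 1.17%, 1.14% and 1.47% in PS473@NKMOF-101-[Mn]. The lowest and the highest of these values are both PBS tumors, and every pair of groups overlapped. The ratio of the mitochondrial to the nuclear share was 4.30 in PS473@CPs tumor 2, against 0.600 to 1.53 in the other 17 tumors. In whole tumor pieces, fewer cells that carry a transcript and less of it per cell cannot be told apart.

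**Figure D1:**
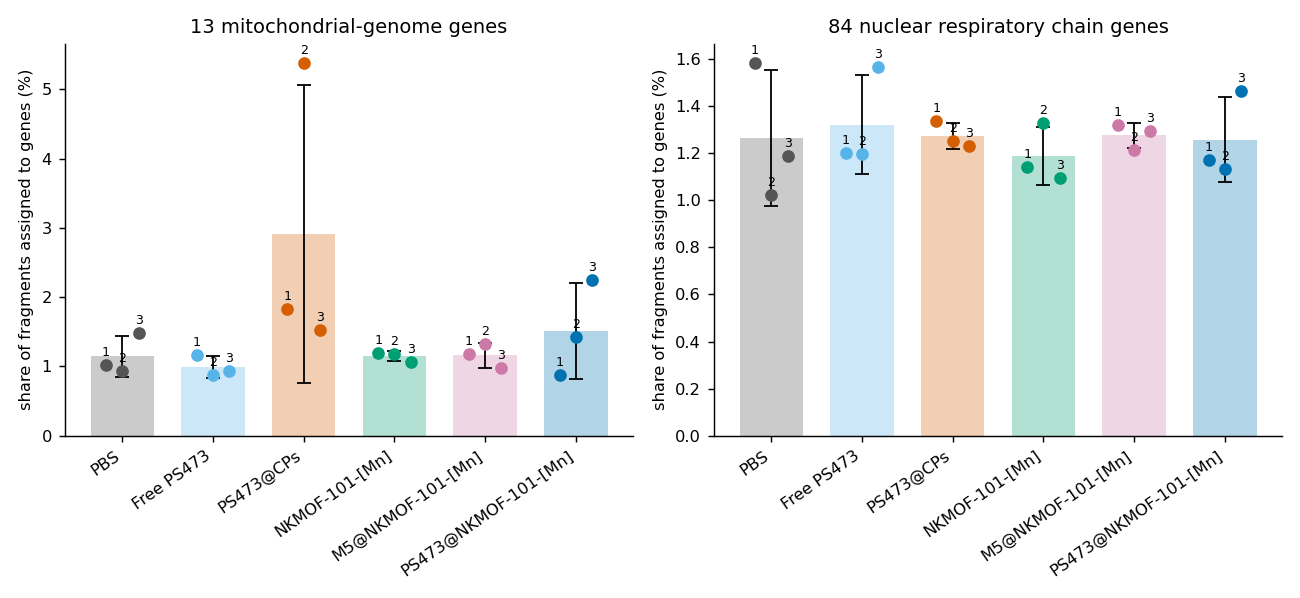
Share of fragments assigned to genes (percent, vertical axes from 0) taken by the 13 mitochondrial-genome genes (left) and the 84 nuclear respiratory chain genes (right) in the 6 groups. Bars are group means, error bars SD (n = 3) and numbered points single tumors. PS473@CPs tumor 2 reaches 5.39% on the left, above the 0.868% to 2.24% of the other 17 tumors, and lies at 1.25% on the right, inside their range.

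The 13 mitochondrial-genome genes were all at their highest in PS473@CPs tumor 2, but by unequal amounts. It was the highest of the 18 tumors for 13 of 13 of them, against 4 of 84 nuclear genes and 7.58% of all 12357 genes tested. Relative to the median of the other 17 tumors its levels were 4.18-fold higher for COX1, a catalytic subunit of complex IV, 4.21-fold for CYTB, the complex III subunit of this genome, and 34.2-fold for ATP8, a small subunit of complex V. The excess of the other 10 lay between these values.

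ATP8 had the widest range. It was at 34.4, 24.4 and 47.8 FPKM in PBS, 87.9, 20.1 and 29.1 in Free PS473, and 75.9, 1179 and 155 in PS473@CPs. It was at 30.7, 29.5 and 39.1 FPKM in NKMOF-101-[Mn], 45.4, 59.1 and 24.7 in M5@NKMOF-101-[Mn], and 18.2, 30.6 and 43.2 in PS473@NKMOF-101-[Mn]. The PS473@CPs tumors were thus all above the tumors of each group but Free PS473, and tumor 2 was 7.60-fold above the next highest tumor.

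ATP6, the proton channel subunit of complex V, shares an mRNA with ATP8. It was at 49.7, 50.7 and 136 FPKM in PBS, 89.7, 64.0 and 55.5 in Free PS473, and 199, 2109 and 159 in PS473@CPs. The framework groups had 91.7, 77.2 and 116 FPKM in NKMOF-101-[Mn], 71.0, 91.8 and 47.3 in M5@NKMOF-101-[Mn], and 41.8, 70.8 and 240 in PS473@NKMOF-101-[Mn]. Here the PS473@NKMOF-101-[Mn] tumors overlapped with PS473@CPs through tumor 3.

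ND4L, a small membrane subunit of complex I, was the one gene of the 13 in which NKMOF-101-[Mn] also stood above PBS. Its levels were 8.10, 6.85 and 14.7 FPKM in PBS, 13.5, 10.1 and 8.58 in Free PS473, and 60.9, 185 and 27.9 in PS473@CPs. They were 35.5, 15.5 and 17.3 FPKM in NKMOF-101-[Mn], 10.3, 11.6 and 8.07 in M5@NKMOF-101-[Mn], and 12.9, 12.2 and 19.8 in PS473@NKMOF-101-[Mn]. PS473@CPs overlapped with NKMOF-101-[Mn] and with no other group. The lowest ND4L value rests on 39 fragments and the lowest ATP8 value on 87.

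COX1 and CYTB were the most abundant of the 13 per length. COX1 was at 3432, 3120 and 4306 FPKM in PBS, 5417, 14856 and 4860 in PS473@CPs, and 2823, 4759 and 6573 in PS473@NKMOF-101-[Mn]. CYTB was at 2031, 1952 and 3339 FPKM in PBS, 4076, 10790 and 3186 in PS473@CPs, and 1894, 2646 and 5249 in PS473@NKMOF-101-[Mn]. COX1 in PS473@CPs did not overlap with PBS, whereas CYTB did. Over all 18 tumors, medians ran from 13.2 FPKM for ND4L to 3561 FPKM for COX1.

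**Figure D2:**
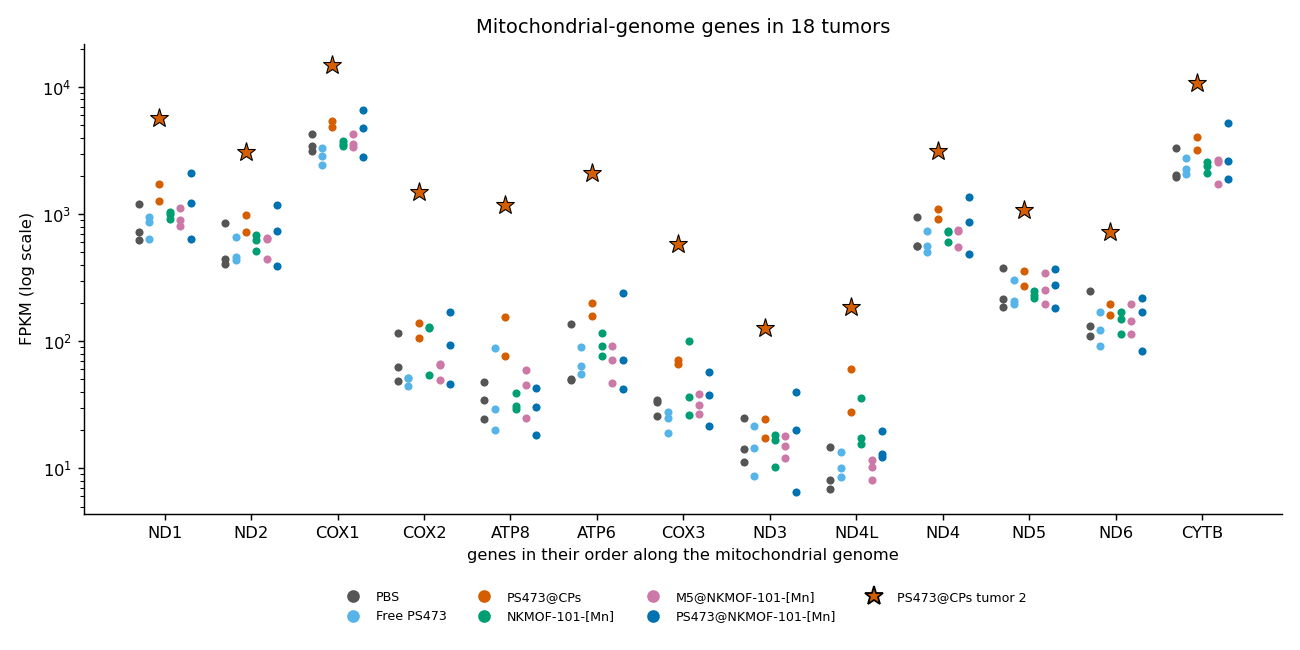
Level (FPKM, log axis) of each mitochondrial-genome gene, in genome order on the horizontal axis, with 1 point per tumor, colored by group and with a star for PS473@CPs tumor 2. The star is the highest point of all 13 genes, at 1179 FPKM for ATP8 and 14856 FPKM for COX1.

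The largest excess in PS473@CPs tumor 2 was in ATP8, ATP6, COX2, COX3 and ND4L. All of them but ATP8 had at least 98.8% of their windows in a nuclear transcript. COX1, with 51.1% of its windows found, had the smallest excess of the 13. The set of 6 genes below was formed after the values were seen, and ATP8 was added although none of its windows was found. Values of this set therefore restate the excess of this tumor and are no separate support. The 6 genes COX2, COX3, ATP6, ND4L, ND3 and ATP8 took 0.999% to 1.99% of the mitochondrial fragments in 17 tumors and 6.06% in PS473@CPs tumor 2. The mean log2(FPKM + 1) of these 6 genes minus that of ND1, ND2, ND5, ND6 and CYTB was -4.18 to -3.30 in 17 tumors and -2.15 in PS473@CPs tumor 2. The ratio of ATP6 to COX1 was 0.142 there, against 0.0140 to 0.0368 elsewhere, while the ratio of CYTB to COX1 was 0.726, inside its range of 0.517 to 0.938. The ratio of ND4L to ND4 was 0.0587 in PS473@CPs tumor 2, but also 0.0550 in PS473@CPs tumor 1 and 0.0482 in NKMOF-101-[Mn] tumor 1, with a median of 0.0173 over the 18 tumors. ND6 stands on the other strand of the mitochondrial genome and the library kit does not mark strand, so fragments of ND6 and ND5 cannot be told apart where the genes overlap. The part of shared sequence in these differences was not tested.

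**Figure D3:**
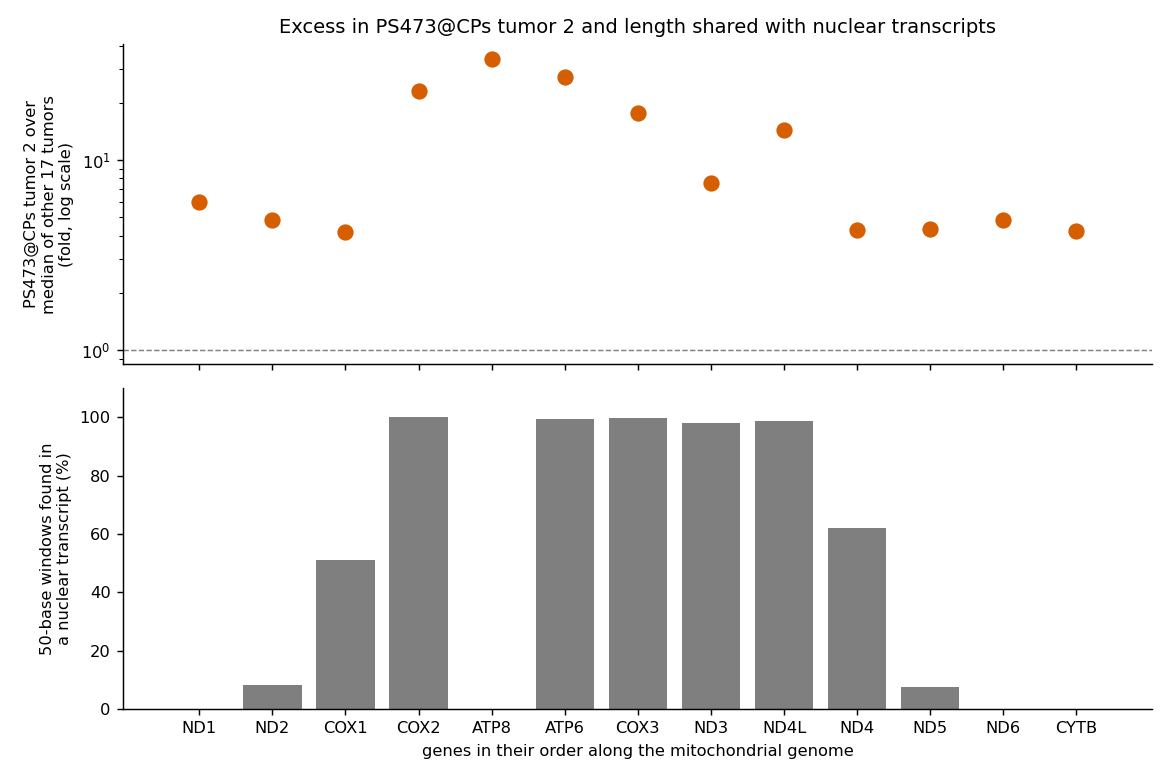
Top, level in PS473@CPs tumor 2 over the median of the other 17 tumors (fold, log axis) for each mitochondrial-genome gene in genome order. Bottom, share of its 50-base windows found in a nuclear transcript (percent). ATP8, ATP6, COX2, COX3 and ND4L stand highest in the top panel, and all of them but ATP8 have at least 98.8% of their windows in a nuclear transcript. The stretch of chromosome 1 between the copies of ATP6 and COX2 was not searched, which limits the value of ATP8.

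The summed skin epithelium genes were highest in the same tumor, though not each gene. Krt5, a keratin of basal epidermis, was at 837 FPKM in PS473@CPs tumor 2 and 519 FPKM in PBS tumor 2, and was 0 in 6 tumors. Its partner Krt14 was higher in PBS tumor 2, at 2058 FPKM against 1756 FPKM in PS473@CPs tumor 2. PBS tumor 2, with skin genes summing to 3614 FPKM, had a mitochondrial share of 0.935%, below the median of 1.18%. Mitochondrial rRNA took 0.0517% of fragments and mitochondrial tRNAs 0.0164% in PS473@CPs tumor 2, against 0.00543% to 0.0743% and 0.00180% to 0.00767% in the others. The share on genes shorter than 300 bases was 0.137% there and 0.0763% to 0.112% in the others. Genes this short include ATP8 (204 bases), ND4L (297 bases) and the mitochondrial tRNAs, so this share partly restates the mitochondrial excess. In the same tumor the fibroblast and endothelium genes summed to 645 FPKM (38.9 to 672 in the others), leukocyte genes to 468 (69.3 to 606), adipocyte genes to 47.0 (5.48 to 80.7) and skeletal muscle genes to 35.2 (31.9 to 103), all inside the range of the other tumors. Their part in the mitochondrial level was not tested.

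PS473@NKMOF-101-[Mn] against PS473@CPs asks whether the framework and the polymer carrier of the same ribozyme leave different transcripts, and all 13 mitochondrial-genome genes were lower on average with the framework. No gene passed the study's thresholds in the limma fit used here (Benjamini-Hochberg adjusted p under 0.05 and more than 2-fold). This held among the members (lowest adjusted p = 0.996) and among all genes tested (0% called). The paper itself reports genes changed in both directions at these thresholds in this comparison, so the 0% holds for this limma fit only. At an unadjusted p under 0.05 there were 5 of 13 mitochondrial-genome genes, all lower, and 0 of 84 nuclear genes. The share of all genes tested was 2.29%. The 13 genes varied together over the 18 tumors (median Pearson r of pairs 0.92). Counts of them, here and below, are therefore not counts of separate results. The limma log2 difference in log2(FPKM + 1) was -3.02 for ATP8 (SE 0.77) and -2.15 for ND4L (SE 0.51). It was -2.17 for ATP6 (SE 0.80), -1.93 for COX3 (SE 0.66) and -1.63 for COX2 (SE 0.76), the last of these being the copper-bearing subunit of complex IV. The other 8 lay between -0.72 (COX1) and -1.07 (ND3). Groups did not overlap for ND4L, COX3 and ATP8, and for 6 of 84 nuclear genes (Atp5me, Cox6c, Cox7b, Cox7c, Ndufb4 and Ndufc1, all lower with the framework), against 4.12% of all genes.

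These differences rest in large part on PS473@CPs tumor 2. The median log2 difference was -0.96 over the 13 mitochondrial-genome genes, -0.09 over the 84 nuclear genes and 0.00 over all genes tested, and without that tumor the mitochondrial median was -0.28. ND4L (-1.44, SE 0.39) and ATP8 (-1.87, SE 0.55) were then the 2 mitochondrial-genome genes left at an unadjusted p under 0.05 in limma, beside 1 nuclear gene, Ndufa12 (-0.81, SE 0.28), and 0.704% of all genes. Leaving out PS473@NKMOF-101-[Mn] tumor 3, the one with low Malat1, the count was 13, with 2 nuclear genes and 5.37% of all genes, and the median -1.38. It was 2 without PS473@NKMOF-101-[Mn] tumor 1 (median -0.55, 3.32% of all genes), 4 without tumor 2 (4.12%), 10 without PS473@CPs tumor 1 (3.5%) and 13 without PS473@CPs tumor 3 (7.54%). Among nuclear genes the lowest differences were -1.40 for Ndufa4l2 (SE 0.87), a hypoxia-induced paralog of Ndufa4, -0.57 for Ndufa12, an accessory subunit of complex I (SE 0.27), and -0.52 for Atp5me, a small membrane subunit of ATP synthase (SE 0.29). The highest were 0.15 for Uqcrc2, a core subunit of complex III, 0.12 for Sdhc, a membrane anchor of complex II, and 0.11 for Atp5f1b, the catalytic beta subunit of ATP synthase.

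**Figure D4:**
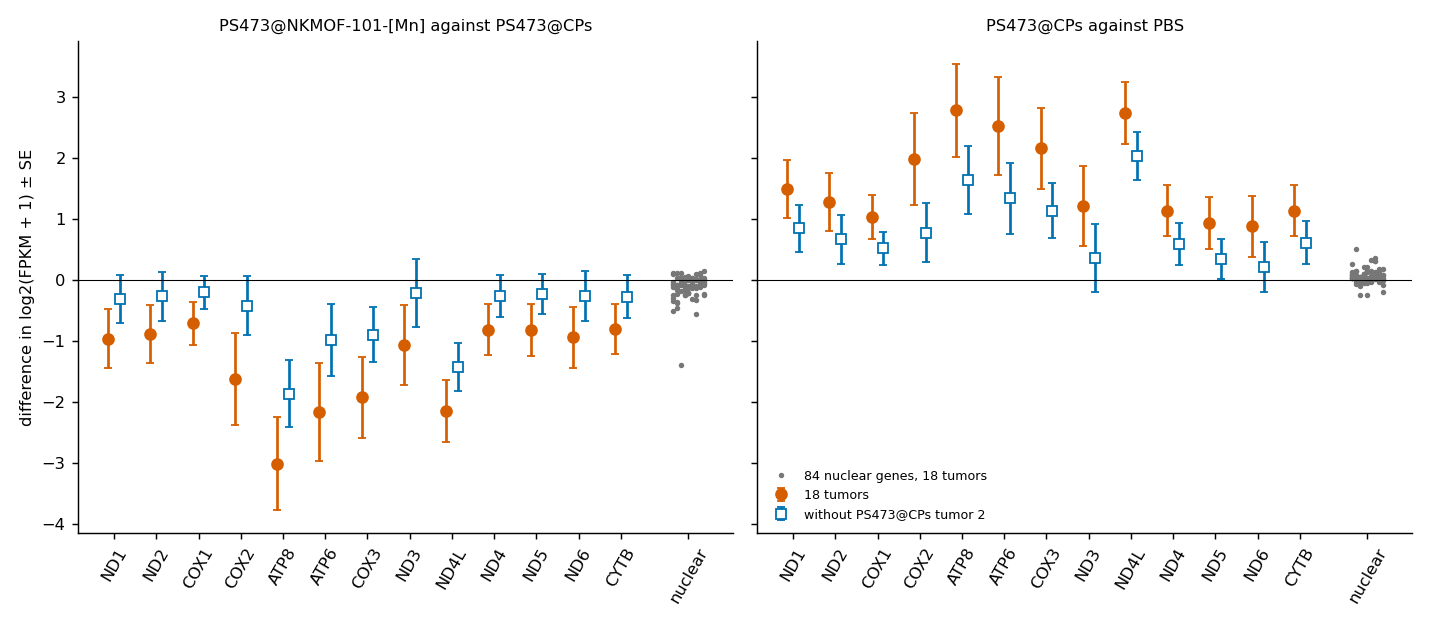
Difference in log2(FPKM + 1) between groups (vertical axis, mean difference ± SE from limma) for the 13 mitochondrial-genome genes, with all 18 tumors (filled circles) and without PS473@CPs tumor 2 (open squares). Grey points are the 84 nuclear genes. In PS473@CPs against PBS (right) ND4L is at 2.74 with all tumors and 2.03 without that tumor.

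PS473@CPs against PBS gave the largest count of mitochondrial-genome genes. No member passed the adjusted threshold in limma (0% of all genes called, lowest adjusted p of members 1). At an unadjusted p under 0.05, 11 of 13 were higher in PS473@CPs, all but ND3 and ND6, against 2.09% of all genes tested. So was 1 of 84 nuclear genes, Atp5mc1, a c-ring subunit of ATP synthase (0.30, SE 0.14). Since the mitochondrial-genome genes varied together, the 11 are not separate results. The log2 difference was 2.74 for ND4L (SE 0.51), 2.78 for ATP8 (SE 0.77), 2.52 for ATP6 (SE 0.80) and 2.16 for COX3 (SE 0.66). It was 1.49 for ND1, a membrane subunit of complex I (SE 0.48), and 1.03 for COX1 (SE 0.36). Groups did not overlap for ND1, ND4L, COX1, COX3, ATP6 and ATP8 and for 1 nuclear gene, Atp5f1d, against 5.11% of all genes. Of the tRNAs of the mitochondrial genome, TrnL1 and TrnM were also higher at an unadjusted p under 0.05.

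The median log2 difference was 1.28 over the mitochondrial-genome genes and 0.05 over the nuclear genes, beside -0.01 over all genes tested. Without PS473@CPs tumor 2 the count was 5 (ND4L at 2.03, ATP8 at 1.64, ATP6 at 1.33, COX3 at 1.13 and ND1 at 0.84) and the median 0.66, against 2.12% of all genes. Without PBS tumor 2 the count was 6 (1.27% of all genes), and without PBS tumor 1 it was 8, with 13 of 84 nuclear genes then also past an unadjusted p under 0.05 (3.95% of all genes). The nuclear median was 0.31 without PBS tumor 1 and -0.09 without PBS tumor 2. Without PS473@CPs tumor 3 all 13 were past it (4.26% of all genes), and ND4L was the 1 gene of all tested that passed the adjusted threshold (log2 difference 3.37, Benjamini-Hochberg adjusted p = 0.0396 in limma). Erythroid genes moved the other way, with Hbb-bs, Hbb-bt and Alas2 lower in PS473@CPs at an unadjusted p under 0.05; their summed level was 45.1 to 1564 FPKM in PS473@CPs and 999 to 13892 FPKM in PBS, and their part in the difference was not tested.

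Against the other 4 groups, the mitochondrial-genome genes were on balance higher in PS473@NKMOF-101-[Mn], by less than in the comparisons above, and no member passed the adjusted threshold. In the same limma fit 0 members passed the adjusted threshold against Free PS473, PBS, the framework alone and the framework with M5, as did 0% of all genes in each. Unadjusted, 1 member was under 0.05 against Free PS473, namely Ndufa12, and 0 in the other 3, beside 4.98%, 2.1%, 2.3% and 0.591% of all genes in the order named. Ndufa12 was at 17.9, 20.5 and 24.2 FPKM in PS473@NKMOF-101-[Mn] and at 34.9, 25.0 and 41.2 FPKM in Free PS473, with a log2 difference of -0.65 (SE 0.27, limma adjusted p = 0.96). No nuclear gene was under 0.05 without Free PS473 tumor 1, Free PS473 tumor 3 or PS473@NKMOF-101-[Mn] tumor 1. The widest nuclear difference was that of Ndufa4l2 against PBS, at -1.65 (SE 0.87), with 2.80 FPKM on average against 15.7 FPKM. The median differences of the mitochondrial-genome genes were 0.44, 0.32, 0.19 and 0.31, and those of the nuclear genes -0.08, -0.03, 0.05 and -0.07. These comparisons share the 3 PS473@NKMOF-101-[Mn] tumors, and those with PBS share the 3 PBS tumors.

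Single tumors set the direction of several of these medians. Without PS473@NKMOF-101-[Mn] tumor 3, the mitochondrial medians were 0.08 against Free PS473, -0.10 against PBS, -0.24 against the framework alone and -0.08 against M5. Without PBS tumor 1, 2 nuclear genes were under an unadjusted p of 0.05 against PBS (5.4% of all genes) and the nuclear median was 0.19. Without PBS tumor 2 that median was -0.20, and 0 nuclear genes were under it (1.33%).

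Groups did not overlap for Atp5me and Ndufa12 against Free PS473 (6.82% of all genes), and for 0 members against PBS (4.66%) and against the framework alone (7.91%). Against M5, the inactive ribozyme in the same carrier, ND4L was higher in all 3 tumors with the active ribozyme, with a log2 difference of 0.52 (SE 0.51). In the same comparison 8 nuclear genes were lower in all 3 (4.48% of all genes did not overlap). They were Atp5me, Atp5mf, Atp5mk, Cox6c, Cox7b, Cox7c, Ndufb1 and Ndufc1, small membrane subunits of complexes I, IV and V, with log2 differences of -0.57 (SE 0.29) for Atp5me and -0.36 (SE 0.25) for Cox7c. Atp5me was at 38.9, 36.8 and 41.6 FPKM with the active ribozyme and 60.8, 61.3 and 53.5 FPKM with the inactive one.

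Set against PBS, the other 3 treated groups had 0 members past the adjusted threshold in limma, with 0% of all genes called in each. Unadjusted, there were 0 members for Free PS473 (1.81% of all genes) and for M5@NKMOF-101-[Mn] (1.51%), and 1 for NKMOF-101-[Mn] (1.46%), namely ND4L with a log2 difference of 1.10 (SE 0.51). Groups did not overlap for 0 members in Free PS473 (4.91%), for ND4L alone in NKMOF-101-[Mn] (6.02%), and for Cox4i2 and Ndufs6b, both lower, in M5@NKMOF-101-[Mn] (8.11%). The lowest nuclear difference in all 3 was that of Ndufa4l2, at -1.42, -0.92 and -1.27 (SE 0.87 each), and none of them passed the test. These counts depend on PBS tumor 1. Without it, 16 of 84 nuclear genes were under an unadjusted p of 0.05 for Free PS473 (5.84% of all genes, nuclear median 0.30), 10 for M5@NKMOF-101-[Mn] (5.47%, 0.29) and 1 for NKMOF-101-[Mn] (1.96%, 0.13). Without PBS tumor 2 the counts were 0 and the nuclear medians -0.10, -0.13 and -0.25. ND4L in NKMOF-101-[Mn] was no longer under it without PBS tumor 1, PBS tumor 2, NKMOF-101-[Mn] tumor 1 or NKMOF-101-[Mn] tumor 3.

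With the 3 framework groups set against the 3 groups without framework, all 13 mitochondrial-genome genes were lower on average (median log2 difference -0.28), as were 71 of 84 nuclear genes (median -0.07). No member passed the adjusted threshold (0% of all genes), and 1 was past an unadjusted p under 0.05 (4.56% of all genes), namely ATP8 at -0.99 (SE 0.44). Without PS473@CPs tumor 2 the mitochondrial median was -0.04 and no mitochondrial-genome gene was past it, as in 10 of the 18 fits that each left out 1 tumor. In the moderated F test for any difference among the 6 groups, 0 members passed after adjustment (0% of all genes). Unadjusted, 5 of 13 mitochondrial-genome genes were under 0.05 (ND4L, ATP8, COX3, COX1 and ATP6) and 0 of 84 nuclear genes, against 1.99% of all genes.

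A score for each tumor, the mean log2(FPKM + 1) of the mitochondrial-genome genes minus that of the nuclear genes, ranged from 0.39 to 1.87 in 17 tumors and was 4.11 in PS473@CPs tumor 2. It was 0.39, 0.91 and 1.68 in PBS, 1.28, 0.72 and 0.42 in Free PS473, and 1.87, 4.11 and 1.73 in PS473@CPs. It was 1.44, 1.18 and 1.24 in NKMOF-101-[Mn], 0.99, 1.34 and 0.66 in M5@NKMOF-101-[Mn], and 0.64, 1.41 and 1.87 in PS473@NKMOF-101-[Mn]. All 3 PS473@CPs tumors lay above the PBS tumors, and PBS spanned most of the range of the remaining groups. The group mean of PS473@NKMOF-101-[Mn] was 1.26 lower than that of PS473@CPs, 0.49 lower without PS473@CPs tumor 2, and 0.50 and 0.31 higher than those of Free PS473 and PBS, beside a within-group SD of 0.70.

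Among themselves, genes of one genome mostly varied together across tumors, while those of different genomes did so far less. As a description over tumors that share libraries and depth, the median Pearson r of pairs was 0.92 within the mitochondrial-genome genes (n = 18 tumors), 0.76 within the nuclear genes and 0.12 between them, beside 0.02 for all pairs of genes tested. Without PS473@CPs tumor 2 (n = 17) these medians were 0.77, 0.78, 0.11 and 0.02. Single pairs over all 18 tumors ran from -0.58 to 0.98 within the nuclear genes and from -0.30 to 0.76 between the genomes. The SD of log2(FPKM + 1) over 18 tumors had a median of 0.76 for mitochondrial-genome genes (0.48 without that tumor), 0.23 for nuclear genes and 0.18 for all genes tested.

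Most core subunits of the nuclear set varied less than the median nuclear gene (SD 0.23), with Cox4i1 (SD 0.28) above it. Ndufs1, the large iron-sulfur subunit of complex I, had the smallest spread of the 84 (SD 0.07) and ranged from 35.2 to 42.3 FPKM. Ndufv1, which binds NADH, ranged from 62.0 to 92.1 FPKM, Sdha and Sdhb, the catalytic subunits of complex II, from 104 to 154 and from 169.9 to 261 FPKM. Uqcrc1 ranged from 145 to 225 FPKM and Uqcrfs1, the Rieske subunit of complex III, from 99.1 to 153 FPKM. Cox4i1 ranged from 284 to 628 FPKM and Cox5a from 32.0 to 53.4 FPKM, and the ATP synthase subunits Atp5f1a and Atp5f1b from 394 to 552 and from 758 to 1189 FPKM. None of these 10 was past an unadjusted p under 0.05 in any comparison.

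Ndufa4l2 had the largest spread (SD 1.16). It was at 2.34, 31.4 and 13.2 FPKM in PBS, 2.33, 1.41 and 8.98 in Free PS473, 2.53, 38.1 and 5.68 in PS473@CPs, 8.35, 4.58 and 3.32 in NKMOF-101-[Mn], 2.02, 3.36 and 7.36 in M5@NKMOF-101-[Mn], and 2.12, 4.13 and 2.13 in PS473@NKMOF-101-[Mn]. Its highest values, 38.1 and 31.4 FPKM, were in the tumors with the highest skin epithelium genes, PS473@CPs tumor 2 and PBS tumor 2. In PS473@CPs tumor 2 the fibroblast and endothelium genes also summed to 645 FPKM (38.9 to 672 in the others) and leukocyte genes to 468 (69.3 to 606). The part of any of these cells was not tested. Cox4i2, the oxygen-responsive isoform of Cox4, was also highest in PS473@CPs tumor 2 (4.37 FPKM) and ranged from 0.494 to 2.80 FPKM in the others.

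Isoforms known from muscle, testis or other specialized tissue were at or below the limit. Mean levels were 0.557 FPKM for Cox6a2, 0.867 for Cox7a1 and 0.0913 for Cox8b, which belong to heart and skeletal muscle. They were 0.197 for Cox6b2, 0.00758 for Cox7b2 and 0 for Cox8c, which are known from testis, and 0 and 0.00683 FPKM for Ndufa11b and Ndufb11b. Ndufs5-ps, Ndufb4b, Ndufb4c and Ndufs6b, kept by name, are near copies of Ndufs5, Ndufb4 and Ndufs6, so their values are uncertain. Ndufs5-ps and Ndufb4c had the highest nuclear differences in PS473@CPs against PBS (0.51, SE 0.28, and 0.36, SE 0.27), neither past the test.

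Many of the nuclear genes had their highest or their lowest value in the same tumors. Of the 84, 48 were highest in PBS tumor 1 and 51 were lowest in PBS tumor 2. The share of all genes tested that were highest or lowest in these tumors is not given here, so the counts are not read as particular to these genes. Uqcr11, a small subunit of complex III, was at 268, 122 and 137 FPKM in PBS, 161, 145 and 283 in Free PS473, and 201, 189 and 160 in PS473@CPs. In the framework groups it was at 155, 185 and 129 FPKM in NKMOF-101-[Mn], 185, 165 and 177 in M5@NKMOF-101-[Mn] and 147, 119 and 177 in PS473@NKMOF-101-[Mn]. The 2 highest tumors, PBS tumor 1 and Free PS473 tumor 3, belong to different groups.

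In PBS tumor 1 and Free PS473 tumor 3 the shorter members stood higher than the longer ones. Relative to the median tumor of each gene, PBS tumor 1 had a median log2 value of 0.63 over the 25 nuclear members shorter than 600 bases, 0.52 over the 23 of 600 to under 1200 bases and 0.26 over the 36 of 1200 bases or more. All other genes tested of these lengths were at 0.20, 0.23 and -0.05 there, and cytoplasmic ribosomal protein genes at 0.68. Free PS473 tumor 3 had 0.50, 0.44 and 0.32 in the members and 0.27, 0.29 and 0.00 in other genes, and PBS tumor 2 had -0.34, -0.33 and -0.24 in the members and -0.01, -0.14 and -0.01 in other genes. In PS473@NKMOF-101-[Mn] tumor 3 the order was the reverse, and the members gave 0.11, 0.18 and 0.24 in the members, while other genes shorter than 600 bases were at -0.61. The part of gene length and of the erythroid genes of PBS tumor 1 in the nuclear values was not tested.

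**Figure D5:**
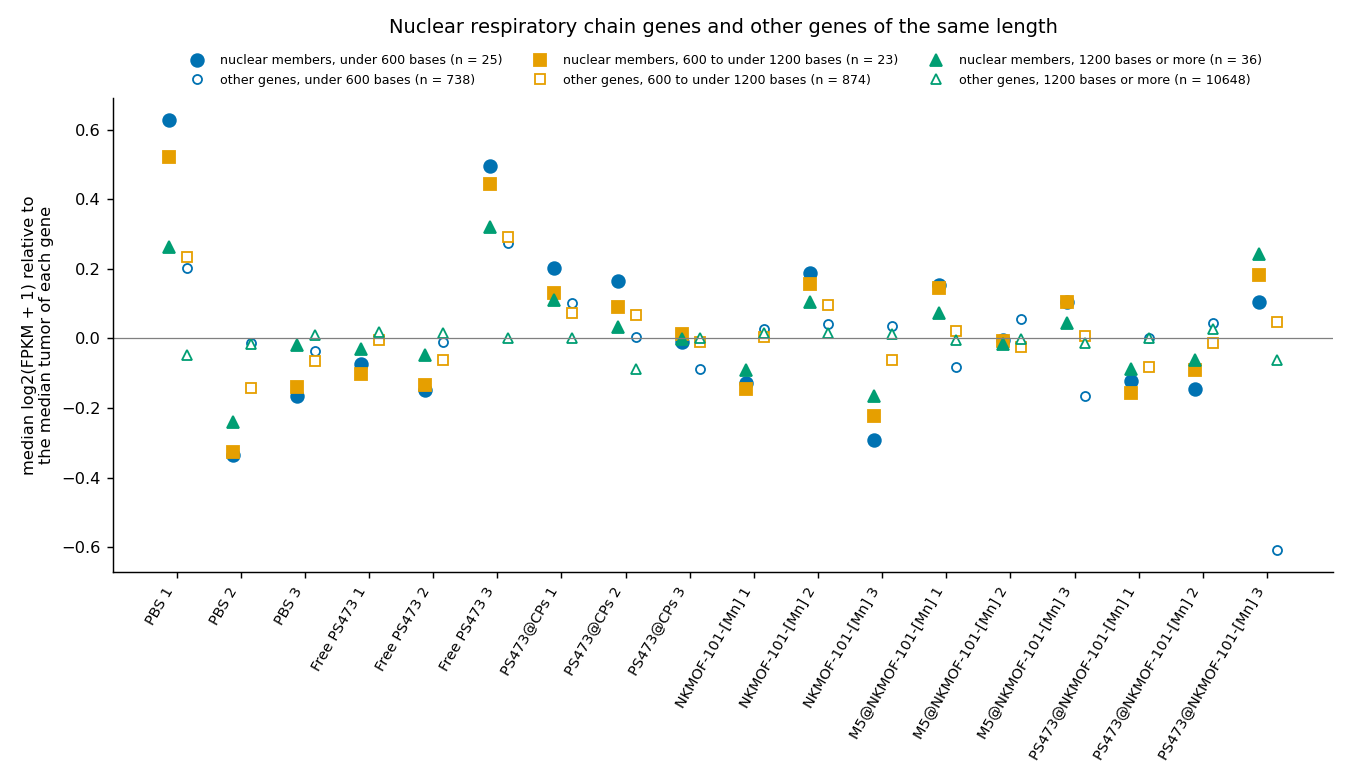
Median log2(FPKM + 1) relative to the median tumor of each gene (vertical axis) in each of the 18 tumors (horizontal axis) for nuclear respiratory chain genes (filled) and all other genes tested (open), in 3 classes of gene length. PBS tumor 1 is highest for members shorter than 600 bases (0.63, n = 25), and PS473@NKMOF-101-[Mn] tumor 3 is lowest for other genes of that length (-0.61, n = 738).

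Promoters of the nuclear members were read from RefSeq (GRCm38.p6, 250 bases before to 50 after the start), where 52 of the 84 matched by symbol. On both strands, the NRF1 core GCATGCGC was in 7 of the 52 (13.5%), against 3.05% of 27025 genes and 6.11% of the 9214 tested genes with a promoter. The YY1 motif AAGATGGC was in 8 (15.4%, against 3.19% and 5.58%) and the GABP motif CCGGAAGT in 4 (7.69%, against 4.31% and 9.72%). The promoter of Uqcr11 (chr10:80406772-80407071, minus strand) holds both the GABP and the NRF1 letters, set in capitals. It is printed as a member that matched 2 of the motifs.
Uqcr11: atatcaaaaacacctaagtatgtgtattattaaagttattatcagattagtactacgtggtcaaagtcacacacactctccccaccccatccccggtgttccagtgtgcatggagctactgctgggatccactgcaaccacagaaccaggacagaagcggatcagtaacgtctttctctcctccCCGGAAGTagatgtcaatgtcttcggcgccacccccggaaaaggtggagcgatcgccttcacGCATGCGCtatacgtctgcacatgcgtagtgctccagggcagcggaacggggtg
A match describes these letters only.

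Of the genes that serve the respiratory chain, none passed the adjusted threshold and few had an unadjusted p under 0.05. Of 33 genes for mitochondrial transcription, replication and RNA processing tested, 0 passed the adjusted threshold in any comparison in limma, and at an unadjusted p under 0.05 there were 0 in PS473@NKMOF-101-[Mn] against PS473@CPs and 1 in PS473@CPs against PBS (Tbrg4, higher). Tfam, which packages and transcribes mitochondrial DNA, was at 6.58, 5.41 and 5.85 FPKM in PS473@CPs and 6.33, 5.65 and 6.17 FPKM in PBS. Polrmt, the mitochondrial RNA polymerase, was at 8.17, 5.53 and 5.99 FPKM in PS473@CPs and 4.79, 5.88 and 7.85 FPKM in PBS. PS473@CPs tumor 2, with the highest mitochondrial transcripts, had the lowest Tfam and Polrmt of its group, though Polrmt was lower in PBS tumor 1. The part of either gene in the mitochondrial level was not tested. Lrpprc and Slirp, which stabilize mitochondrial mRNAs, differed by 0.05 (SE 0.14) and 0.08 (SE 0.24) between PS473@CPs and PBS.

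The 12 nuclear regulators tested had 0 genes past an unadjusted p under 0.05 in every comparison made. Between PS473@CPs and PBS the limma log2 difference was -0.19 (SE 0.25) for Ppargc1a, a coactivator of mitochondrial gene programs, -0.06 (SE 0.10) for Nrf1, -0.05 (SE 0.06) for Gabpa and 0.10 (SE 0.11) for Esrra. Of 48 assembly factors, 0 passed after adjustment in limma, 1 was lower unadjusted in PS473@NKMOF-101-[Mn] against PS473@CPs (Ndufaf4) and 0 in PS473@CPs against PBS. Of 78 mitochondrial ribosomal protein genes these counts were 0 and 2 (Mrpl51 and Mrps2, higher), with 0 after adjustment. The 6 electron carrier genes tested, which include Cycs, the gene for cytochrome c, had 0 in both. Of 23 other mitochondrial-genome genes, 0 were past it in the former comparison and 2 in the latter, and of 13 RNAs with little poly(A), mostly histone mRNAs, 0 and 1 (H2ac25, higher).

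Of the marker lists of other cells, 0 genes passed the adjusted threshold in any comparison in limma. At an unadjusted p under 0.05 there were 0 of 12 skin epithelium, 0 of 11 melanocyte, 0 of 12 leukocyte, 0 of 8 fibroblast and endothelium, 0 of 2 adipocyte and 0 of 7 skeletal muscle genes tested both in PS473@NKMOF-101-[Mn] against PS473@CPs and in PS473@CPs against PBS. Of 5 erythroid genes there were 0 in the former and 3 in the latter.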

How the data were processed

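RNA of 18 B16F10 tumors (6 groups, n = 3) was enriched with oligo(dT) beads, fragmented and made into libraries without strand marking. The authors deposited FPKM values for 41079 genes with gene lengths; their notes name GRCm39, and aligner and counter are not given in the sources used here. Total fragments per tumor were worked out from the spacing of low values and gene lengths. FPKM are not counts, so genes averaging 1 FPKM or more (12357) were fitted on log2(FPKM + 1) with limma 3.58.1 in R 4.3.3 (6 group means, eBayes with trend). P-values were adjusted by Benjamini-Hochberg over all genes per comparison and called under 0.05 with a log2 difference above 1. Differences on this scale understate those of low genes. Python 3.11.15, numpy 2.4.6, pandas 2.3.3 and matplotlib 3.10.9 were used for sequences, summaries and plots. Tests were checked on simulated data.

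The members and lists were chosen with earlier results of these data known. Lists covered mitochondrial transcription, regulators, assembly factors, mitochondrial ribosomal proteins, electron carriers, other mitochondrial-genome genes, RNAs with little poly(A), and markers of melanocytes, skin epithelium, erythroid cells, leukocytes, fibroblasts and endothelium, adipocytes and skeletal muscle. Named were all 13 mitochondrial-genome genes, core subunits, tissue isoforms, the nuclear genes with extreme differences or spread, and list members past a test. The genes without overlap, Uqcr11, Krt5, Krt14 and Malat1 were named after their values were seen. Alternatives were another pseudocount, filters, scalings, samples, prior, a replicate block and leaving out each tumor.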

Additional observations from a re-analysis of the deposited data

Results flagged for a closer look

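Genes of the mitochondrial genome outside the 13 described showed high values in single tumors, above the PBS tumors. The larger mitochondrial rRNA, mt-Rnr2, was at 321 FPKM in PS473@NKMOF-101-[Mn] tumor 3 and 152 FPKM in PS473@CPs tumor 2, against 41.1 to 43.4 FPKM in PBS. The lysine tRNA TrnK, which lies between COX2 and ATP8, was at 97.1 FPKM in PS473@CPs tumor 1 and 91.3 FPKM in PS473@NKMOF-101-[Mn] tumor 3, against 6.58 FPKM in the next highest tumor and 0.394 to 1.11 FPKM in PBS. TrnK spans 65 bases. Neither RNA is well captured by oligo(dT) selection, and no cause was tested.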

How the results depend on the processing

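Counts of members called after adjustment were 0 in all 10 comparisons and in the F test under each pseudocount, filter, scaling, sample choice and prior tried. Leaving out single tumors gave 0 to 1 for PS473@CPs against PBS, the 1 being ND4L without PS473@CPs tumor 3. The mitochondrial minus nuclear score of PS473@NKMOF-101-[Mn] against PS473@CPs was -1.26, and leaving out single tumors gave -1.68 to -0.49, the last without PS473@CPs tumor 2. The score differences of PS473@NKMOF-101-[Mn] against Free PS473 and PBS, and of the framework groups against the rest, moved by less than the within-group SD of 0.696. Under scaling, the mitochondrial median in NKMOF-101-[Mn] against PBS changed sign (0.03, and -0.002 with upper-quartile scaling), and the nuclear median in PS473@NKMOF-101-[Mn] against PBS went from -0.03 to -0.003 with quantile normalization.

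With the replicate number as a block, 0 members were called and the score difference was -1.26. Tumors with the same number did not deviate together more than others. Of 45 pairs with the same number (r -0.73 to 0.724) 18 were above 0.1, against 41 of 90 pairs with different numbers (r -0.694 to 0.724). No pairing by number was seen, but with so wide a spread of r the check cannot exclude it. Depth limits ND4L (39 fragments at its lowest), ND3 (53) and Cox4i2 (8).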
